A study of Mus musculus with 8 samples.

Results

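The potassium channel genes were taken as every protein-coding gene of the count table whose mouse symbol starts with Kcn, which gave 94 of 54752 gene IDs. Of these, 49 passed the filter on low counts and were tested, and 45 did not. By class, 20 of 40 voltage-gated, 9 of 15 inward rectifier, 6 of 14 two-pore, 6 of 8 calcium- or sodium-activated and 8 of 17 accessory subunit genes passed. RNA had been sequenced from mouse heart cardiomyocytes in 8 libraries, 2 in each of 4 groups: Carm1 KO and control at the age labelled 1w, and Carm1 KO and control at that labelled 3w. Mice of all groups carried Carm1fl/fl, a floxed allele of an arginine methyltransferase gene. KO mice received AAV9-Cre and control mice AAV9 with GFP. For injection the labels give postnatal day 1 for replicate 1 and day 2 for replicate 2 of both 1w groups. For both 3w groups they give day 3 for replicate 1 and day 4 for replicate 2. The 2 libraries of every group thus differ in labelled injection day, which follows the replicate number within each age. The hearts were mosaic, cardiomyocytes were isolated on a Langendorff perfusion system with no sorting step described, and no group received Cre without floxed alleles. An effect of Cre itself and an effect of losing Carm1 therefore cannot be told apart, and nothing states plainly that both libraries of a group are from different mice. The p-values then cover the spread of these 8 libraries alone, and that spread may be technical.

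Potassium channels carry the outward currents that repolarise the heart muscle cell after each beat and the inward rectifier current that holds its resting potential. Voltage-gated pores open on depolarisation, inward rectifiers pass current best near rest, two-pore channels leak at all voltages, and accessory subunits change the gating or surface number of the pores. In the mouse ventricle the fast transient outward current dominates repolarisation and grows after birth.

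The libraries held between 20818285 and 53671626 counts, of which 40.7 to 47.8% came from mitochondrially encoded genes. Carm1 itself averaged 22.3 CPM (counts scaled to the library's total) in 1w KO against 39.8 CPM in 1w controls, and 17.6 CPM in 3w KO against 39.6 CPM in 3w controls. Kdm5d, Uty, Ddx3y and Eif2s3y, 4 genes of the Y chromosome, summed to 112.9 to 113.3 CPM in 1w KO, 0 to 0.042 CPM in 1w controls, 0.0697 to 0.106 CPM in 3w KO and 161.3 to 170.1 CPM in 3w controls. A difference that follows these transcripts cannot be told apart from KO at a single age or from age within a genotype, and the difference between the 2 KO effects is the same split. The comparisons over both ages, or over both genotypes, hold 1 group from each side of this split on each side of the comparison. The additive fit does not weigh these groups equally, so the split need not cancel for every gene. Kcnj14, for example, had a log2 fold change in KO of 3.59 at 1w and 0.24 at 3w, but 1.01 over both ages. Of the 10 cardiomyocyte markers, 8 passed the filter and Actc1 and Pln were listed at 0. The table also listed 0 in every library for the broadly used genes Srf, B2m and Cox4i1, so the 14 potassium channel genes at 0 in all libraries are named only as listed at 0.

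The promoters of the 5 channel genes that were lower in KO over both ages are shown, being the whole set of members with that call. The windows run from 250 bases before to 50 bases after the RefSeq start of each gene in GRCm38.p6, and 69 of the 94 channel genes have one. They lie at chr11:111065914-111066213 (plus strand, Kcnj2), chr11:61065554-61065853 (plus strand, Kcnj12), chr6:21215096-21215395 (plus strand, Kcnd2), chr19:45816014-45816313 (minus strand, Kcnip2) and chr2:107290339-107290638 (plus strand, Kcna4). The Kcnj12 window lies inside the annotated span of its gene (chr11:61022564-61071131), at a RefSeq start well downstream of the first annotated base. Capitals mark matches, on either strand, to the motifs named after the sequences.
Kcna4: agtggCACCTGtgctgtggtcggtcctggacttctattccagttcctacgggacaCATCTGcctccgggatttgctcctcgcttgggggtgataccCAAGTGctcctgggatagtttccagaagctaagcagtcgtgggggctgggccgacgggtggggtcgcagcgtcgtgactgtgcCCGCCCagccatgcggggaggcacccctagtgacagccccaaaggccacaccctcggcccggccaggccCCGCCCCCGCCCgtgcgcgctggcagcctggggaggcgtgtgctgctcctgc
Kcnd2: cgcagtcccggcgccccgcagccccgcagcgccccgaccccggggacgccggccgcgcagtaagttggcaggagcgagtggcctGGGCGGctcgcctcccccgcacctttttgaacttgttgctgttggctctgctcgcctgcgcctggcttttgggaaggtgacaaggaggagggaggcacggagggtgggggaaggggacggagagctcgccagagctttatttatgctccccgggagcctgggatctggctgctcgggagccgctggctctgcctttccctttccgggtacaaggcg
Kcnip2: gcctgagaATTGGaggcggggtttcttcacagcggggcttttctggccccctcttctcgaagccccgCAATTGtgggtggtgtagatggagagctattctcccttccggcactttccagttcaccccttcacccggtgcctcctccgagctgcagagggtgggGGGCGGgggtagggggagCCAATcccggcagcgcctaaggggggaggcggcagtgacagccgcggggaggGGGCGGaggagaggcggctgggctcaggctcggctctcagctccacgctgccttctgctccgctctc
Kcnj12: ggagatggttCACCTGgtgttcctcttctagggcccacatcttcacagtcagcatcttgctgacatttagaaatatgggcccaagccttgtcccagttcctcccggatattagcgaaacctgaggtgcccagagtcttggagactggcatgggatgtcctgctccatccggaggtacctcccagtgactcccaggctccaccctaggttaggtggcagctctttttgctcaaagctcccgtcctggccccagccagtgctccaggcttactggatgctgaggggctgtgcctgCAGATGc
Kcnj2: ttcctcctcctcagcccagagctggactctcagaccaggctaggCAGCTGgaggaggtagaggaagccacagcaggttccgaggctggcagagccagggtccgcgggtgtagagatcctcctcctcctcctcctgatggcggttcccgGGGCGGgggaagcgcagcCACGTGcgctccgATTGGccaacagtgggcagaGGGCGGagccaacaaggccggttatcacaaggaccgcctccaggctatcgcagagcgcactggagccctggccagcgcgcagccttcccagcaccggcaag
The E-box, written CANNTG, was in the windows of 4 of these genes and in 72.3% of all 32817 windows of 300 bases. The GC box GGGCGG was likewise in 4 of them and in 35.6% of all windows, and CCAAT was in 2 of them and in 37.4%. No match to the GATA factor motif AGATAA was found in the 5 windows, against 11.2% of all windows. The same held for the sequence TATAAA, present in 13.6% of all windows. Likewise the muscle motif CATTCC (14.7% of all windows) and the MEF2 motif (0.558%) were absent from these letters. No matches of different motifs overlapped. These matches describe letters and name no bound factor.

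Among the 49 tested genes, 30 averaged at least 1 CPM over the 8 libraries, 16 at least 10 CPM and 5 at least 100 CPM. Summed over all 94 genes the level was 1095 and 1110 CPM in 1w KO against 1179 and 1191 CPM in 1w controls. At 3w KO had 1466 and 1441 CPM against 1547 and 1504 CPM in control. On this sum KO libraries lay below control libraries at each age, without overlap, but the classes differed. Inward rectifier sums were lower in KO at each age. Two-pore genes summed to 196.7 and 195.5 CPM in 1w KO against 157.8 and 160.5 CPM in 1w controls, and were lower in KO at 3w. Voltage-gated sums overlapped between KO and control at both ages, and accessory subunit sums were lower in KO at 1w and overlapped at 3w. Per kilobase of exon, control at 3w was led by Kcnk3, an acid-sensitive two-pore leak channel, at 90.5 ± 2.29 CPM per kb (SD, n = 2). The next level was that of Kcnip2, the calcium-binding partner of the transient outward channels, at 49.6 ± 2.42 CPM per kb, and then that of Kcnj11, the pore of the ATP-sensitive channel, at 33.3 ± 1.32 CPM per kb. Kcnh2 (27.9 CPM per kb), Kcng2 (26.9) and Kcne1 (26.2) followed, and neighbours among them overlapped between libraries, as did Kcnj5 (17.0) with Kcnq1 (16.4) and Kcnj3 (11.6) with Kcnj2 (11.4). In control at 1w the order differed: Kcne1, an accessory subunit of the slow delayed rectifier, was highest at 98.7 ± 2.34 CPM per kb and Kcnk3 next at 38.3 ± 0.474 CPM per kb. Accessory subunits made up 40.7% of the summed level per kilobase in 1w KO and 43.9% in 1w controls, and 21.9% in 3w KO and 20.7% in 3w controls. Levels per kilobase use the union of annotated exons, which can exceed the transcript made in these cells.

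**Figure D1:**
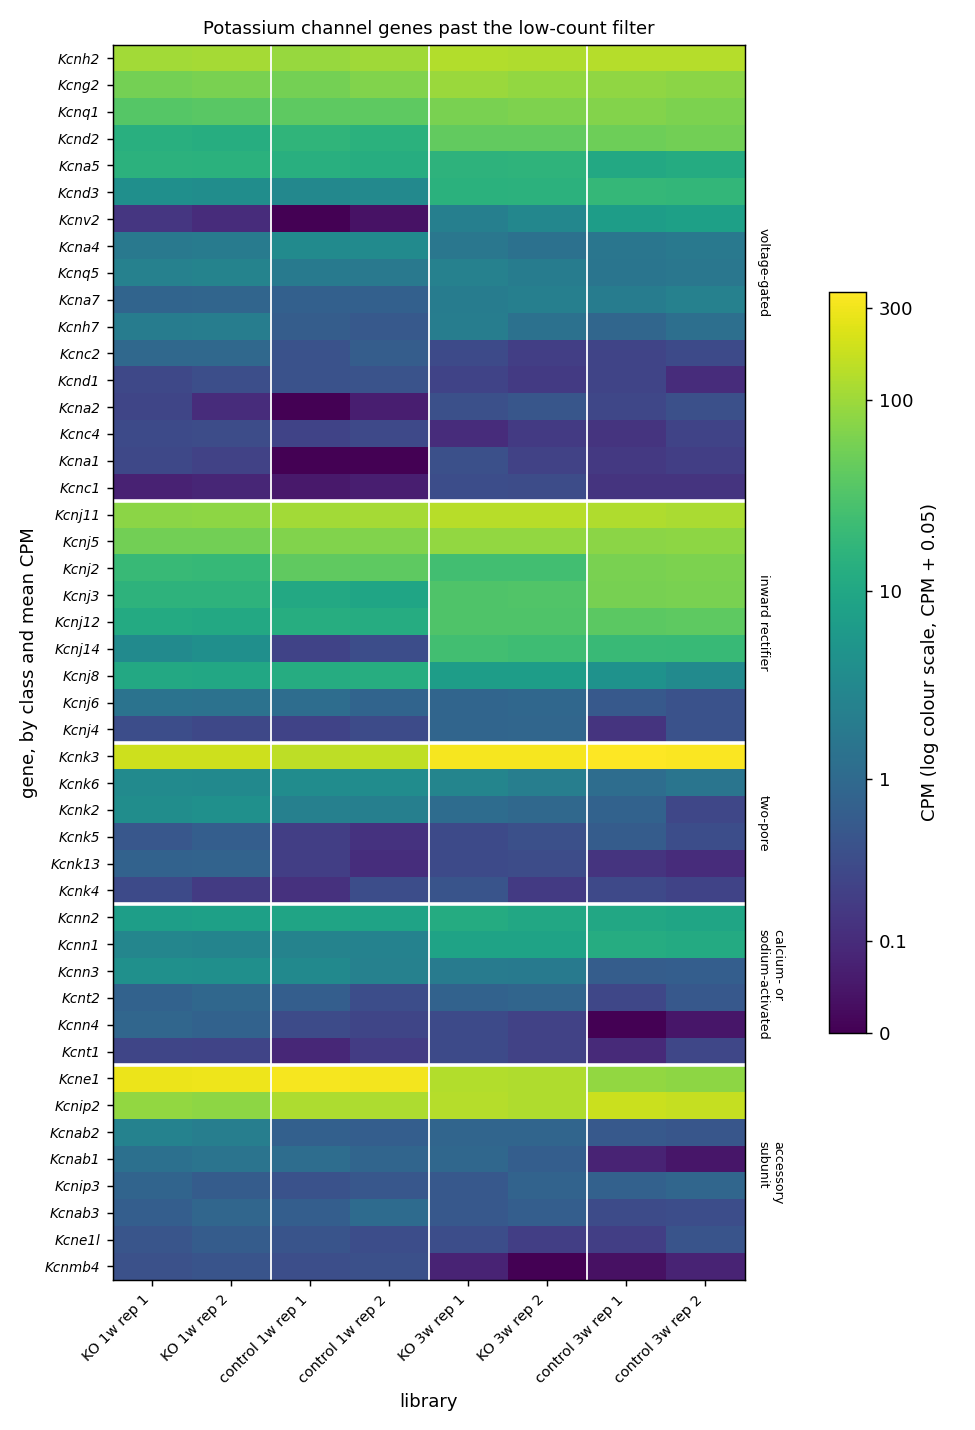
Level of 46 of the tested potassium channel genes (rows, by class and mean level) in the 8 libraries (columns, KO left of control at each age), in CPM on a logarithmic colour scale with 0.05 added. The top rows of each class, such as Kcnh2, Kcnj11, Kcnk3 and Kcne1, are bright in every library. Kcnv2 and Kcnj14 are dark in 1w controls and brighter at 3w. At that age Kcnv2 had 2.3 and 3.0 CPM in KO against 6.9 and 7.8 CPM in control.

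Over both ages Kcnj2, Kcnj12, Kcnd2, Kcnip2 and Kcna4 were lower in KO, and 10 of the 11 genes that were higher averaged under 5 CPM. Most tested channel genes were that low, as only 19 of the 49 averaged at least 5 CPM. In the additive fit of age and KO, 11 channel genes were higher and 5 lower in KO, which is 32.7% of the 49 tested, against 30.7% of all 14665 genes tested (16.3% higher and 14.5% lower). The share called among channel genes was thus near that of all genes. Their median log2 fold change was 0.168, against 0.011 over all genes. At 1w 18 were higher and 11 lower in KO (59.2% of the 49, against 43.0% of all genes, 23.0% higher and 20.0% lower), and at 3w 18 were higher and 9 lower (55.1%, against 49.2% of all genes, 24.4% higher and 24.8% lower). Kcnj2, Kcnd2 and Kcnip2 were lower in KO at each age. Another 8 were higher in KO at each age, among them Kcnh7, Kcnj14, Kcnk2, Kcnk13, Kcnn3, Kcnn4 and Kcnq5, and a further 8 genes were called in opposite directions at the 2 ages. The shares of all genes with these patterns were not counted, so the numbers say nothing particular to channel genes. The calls of Kcnj2 and Kcnip2 held at each age in every alternative run. Kcnd2 and the 7 higher genes named above each lost a call at 1w or 3w in at least 1 alternative. The 3w call of Kcnk13 (edgeR adjusted p = 0.049) was kept in only 1 of 13 alternatives, and that of Kcnq5 in 9 of 14 at each age.

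The number of calls at 1w depended on single libraries and on the tool. It was 19 without control 1w replicate 2, 19 without KO 1w replicate 1 and 18 with DESeq2, against 29, and 14 of the 29 calls held in every alternative run. At 3w 18 of 27 and over both ages 12 of 16 held in every alternative, the exceptions over both ages being Kcna4, Kcnj6, Kcnq5 and Kcnt2. Testing the mean of the 2 KO effects in the fit of 4 groups called 29 genes over both ages in place of 16. The shares of all genes called in these runs are not given here, so these numbers say nothing particular to channel genes.

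**Figure D2:**
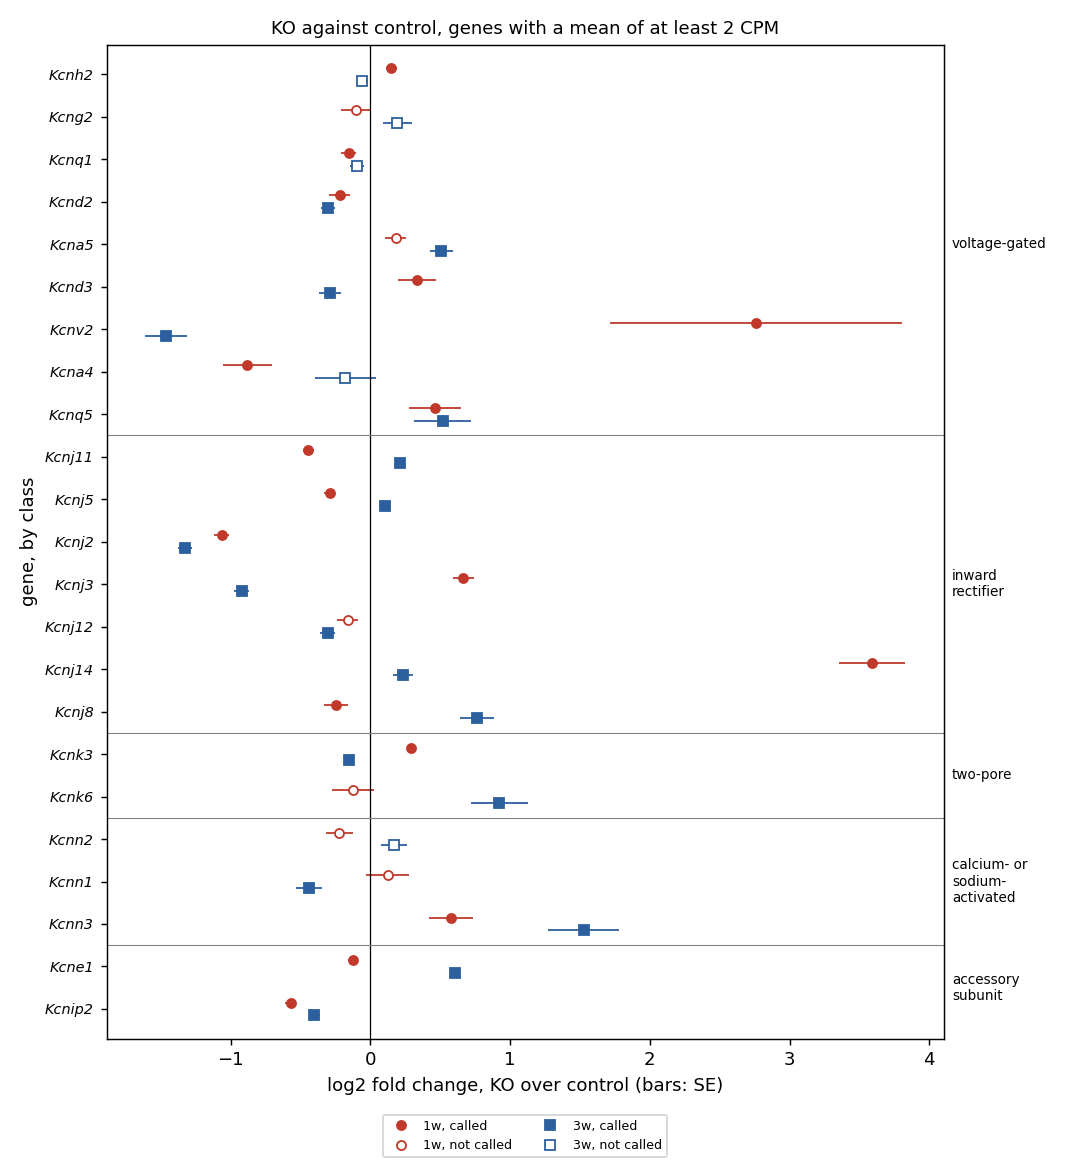
Log2 fold change of KO over control (horizontal axis) at 1w (circles) and 3w (squares) for 23 potassium channel genes with a mean of at least 2 CPM, by class, with bars of 1 SE and filled symbols for genes called at an adjusted p under 0.05. Kcnj2 lies left of 0 at both ages (-1.06 at 1w and -1.33 at 3w), Kcnn3 lies right of 0 at both (0.57 at 1w and 1.53 at 3w), and Kcnj3 and Kcnv2 lie on opposite sides of 0 at the 2 ages.

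The resting inward rectifier is built mainly from Kcnj2, its leading pore subunit in ventricular muscle, and Kcnj12, a close relative. Kcnj2 had 19.7 and 19.2 CPM in 1w KO against 41.7 and 40.1 CPM in 1w controls. In the 3w libraries the values were 24.4 and 24.8 CPM in KO and 60.9 and 62.7 CPM in control. All 4 KO libraries lay below all 4 control libraries. Its log2 fold change over both ages was -1.20 ± 0.061 (SE, edgeR adjusted p = 5.1e-06), with a value of -1.06 ± 0.055 for 1w (adjusted p = 2.8e-25) and -1.33 ± 0.053 for 3w (adjusted p = 3.8e-31). The KO effect at 3w less that at 1w was -0.26 ± 0.077 (adjusted p = 0.0051), a difference that cannot be told apart from the Y-linked split. Kcnj12 had 11.4 and 10.8 CPM in 1w KO against 12.5 and 12.4 CPM in 1w controls. The 3w values were 31.7 and 31.8 CPM in KO against 38.9 and 39.9 CPM in control. KO libraries were lower at each age without overlap, and the log2 fold change was -0.24 ± 0.052 over both ages (adjusted p = 0.008), called at 3w (-0.31 ± 0.056, adjusted p = 4.2e-06) and not at 1w (-0.16 ± 0.077, adjusted p = 0.082).

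Another pair of the same family did not follow Kcnj2. Kcnj14, named after its values were seen, had 3.53 and 4.18 CPM in 1w KO against 0.252 and 0.355 CPM in 1w controls. At 3w the libraries gave 25.1 and 23.3 CPM in KO and 20.9 and 20.1 CPM in control. It was higher in 1w KO by 3.59 ± 0.24 (log2, adjusted p = 3.6e-20) and at 3w by 0.24 ± 0.071 (adjusted p = 0.0044), and the 3w call was lost in DESeq2 and without control 3w replicate 2 or KO 3w replicate 1. Per kilobase, Kcnj14 stood at 8.9 CPM per kb in 3w KO, where Kcnj2 stood at 4.52 CPM per kb, and at 7.54 CPM per kb in 3w controls, where Kcnj2 stood at 11.4 CPM per kb. Kcnj4 had 0.847 and 0.906 CPM in 3w KO against 0.143 and 0.424 CPM in 3w controls (1.75 ± 0.42 on the log2 scale, adjusted p = 0.00036), a call lost without control 3w replicate 1. At 1w its values overlapped, with 0.359 and 0.291 CPM in KO and 0.252 and 0.328 CPM in control.

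Kcnj3 and Kcnj5 encode the 2 pore subunits of the channel that acetylcholine opens through G proteins, found mostly in atrium and sinus node. Kcnj3 had 16.0 and 15.5 CPM in 1w KO against 10.7 and 9.35 CPM in 1w controls. Values at 3w were 31.2 and 32.7 CPM for KO and 59.2 and 62.1 CPM for control. It was higher in 1w KO (log2 fold change 0.67 ± 0.077, adjusted p = 7.7e-11) and lower at 3w (-0.92 ± 0.053, adjusted p = 4.1e-23), and no change was called over both ages (-0.19 ± 0.32, adjusted p = 0.69). Markers of atrial muscle moved at both ages: 8 of 8 were higher in 1w KO, and at 3w 3 were higher and 5 lower. Their summed level was 645.8 to 651.1 CPM in 1w KO against 71.0 to 74.1 CPM in 1w controls. For 3w the readings were 602.2 to 616.7 CPM in KO and 177 to 183.9 CPM in control, and their part in the change of Kcnj3 was not tested. Nppa, a natriuretic peptide gene, set the 3w sum, with a mean of 583.4 CPM in KO and 102.5 CPM in control. The other 7 markers together ran the opposite way at 3w, with 25.4 to 26.6 CPM in KO against 75.7 to 80.3 CPM in control. Of its exon bases 31.1% overlap Gm26794 on the other strand, which held 104 counts in all against 7956 for Kcnj3, and without a stated strand setting reads of the overlap cannot be told apart. Kcnj5 moved the other way, with 54.7 and 55.6 CPM in 1w KO against 67.2 and 67.8 CPM in 1w controls. At 3w KO had 85.9 and 85.5 CPM against 78.6 and 81.1 CPM in control. It was lower in 1w KO (log2 fold change -0.29 ± 0.042, adjusted p = 3.4e-08), and its small rise at 3w (0.10 ± 0.040, adjusted p = 0.027) was lost in 9 of 14 alternatives. Kcnj6, a G-protein-gated subunit best known from neurons, was higher in KO over both ages by 0.68 ± 0.19 (adjusted p = 0.023, lost in 6 of 13 alternatives). It had 1.42 and 1.40 CPM in 1w KO against 1.13 and 0.82 CPM in 1w controls. In the 3w libraries the values were 0.847 and 0.941 CPM in KO and 0.548 and 0.424 CPM in control.

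The ATP-sensitive channel couples membrane potential to energy state. Its ventricular pore gene Kcnj11 had 77.5 and 81.1 CPM in 1w KO against 107 and 109 CPM in 1w controls. The 3w values were 141 and 143 CPM in KO against 126 and 119 CPM in control. It was lower in 1w KO (-0.45 ± 0.038, adjusted p = 2.2e-15) and higher at 3w (0.21 ± 0.037, adjusted p = 2.4e-06). Kcnj8, the vascular pore of the same channel type, was called in the same directions. It had 10.7 and 10.4 CPM in 1w KO against 12.4 and 12.6 CPM in 1w controls (-0.25 ± 0.087, adjusted p = 0.016). At 3w the libraries gave 7.03 and 7.04 CPM in KO and 4.58 and 3.53 CPM in control (0.76 ± 0.12, adjusted p = 1.8e-07). The 1w call of Kcnj8 was lost in DESeq2 and without control 1w replicate 2, KO 1w replicate 1 or KO 1w replicate 2. The receptor subunit Abcc9, which assembles with these pores, moved alike, with means of 264.1 CPM in 1w KO against 382.4 CPM in 1w controls and 373.6 CPM in 3w KO against 313.1 CPM in 3w controls. Kcnj8 is also a gene of pericytes and smooth muscle, whose 10 markers summed to 2047 to 2070 CPM in 1w KO against 1401 to 1451 CPM in 1w controls. Values at 3w were 1662 to 1663 CPM for KO and 811.2 to 843.9 CPM for control. At 3w 9 of these 10 were higher in KO and 0 lower, at 1w 6 were higher and 1 lower, and their part in the values of Kcnj8 was not tested.

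**Figure D3:**
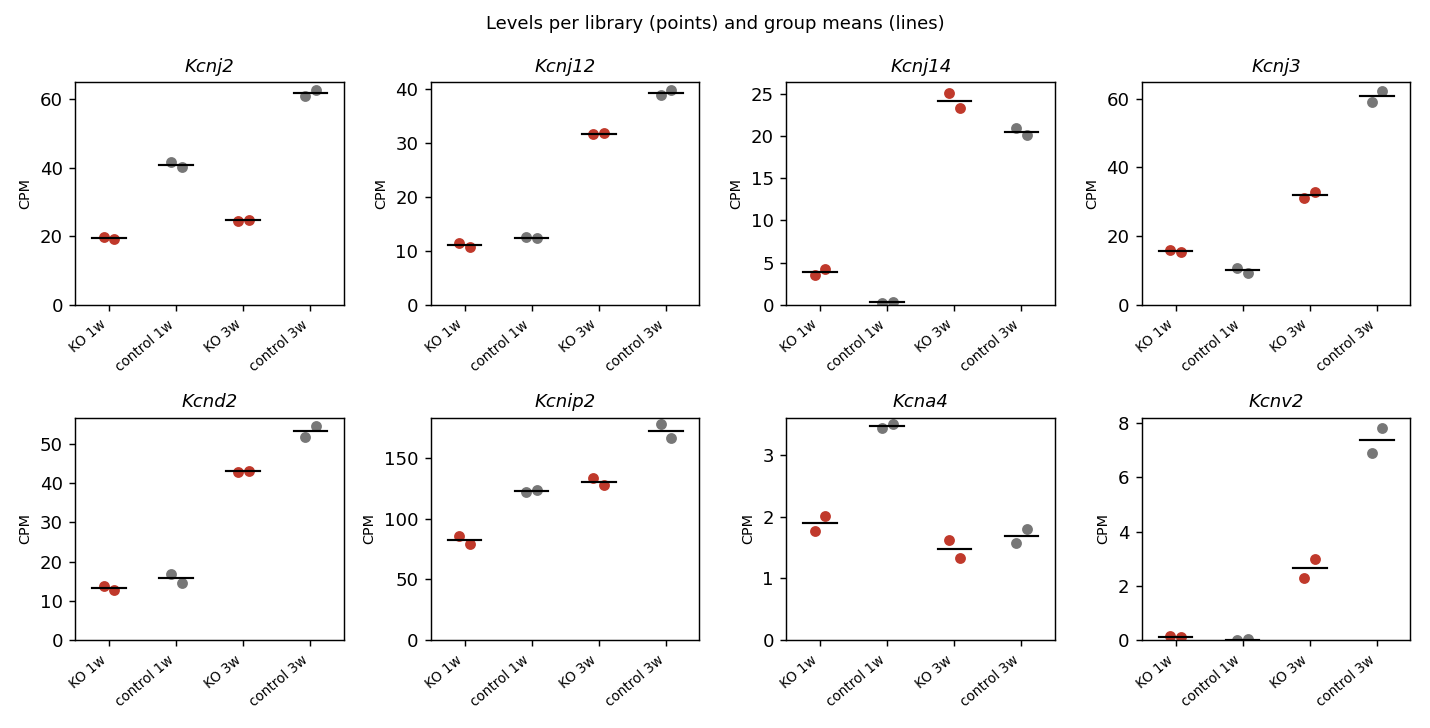
Level in CPM (vertical axes, each from 0) of 8 potassium channel genes in each library (points) with the mean of each group (lines), KO left of control at each age. Kcnj2 in 3w KO (24.4 and 24.8 CPM) stays below control at 1w (41.7 and 40.1 CPM), and Kcnip2 and Kcnd2 are lower in KO within each age while higher at 3w than at 1w.

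The fast transient outward current of mouse ventricle rests on the pore genes Kcnd2 and Kcnd3 and on Kcnip2, whose calcium-binding product brings the pores to the surface. Kcnip2 had 85.7 and 79.6 CPM in 1w KO against 122 and 124 CPM in 1w controls. For 3w the readings were 134 and 128 CPM in KO and 178 and 167 CPM in control. KO libraries were lower at each age without overlap, with a log2 fold change of -0.49 ± 0.053 over both ages (adjusted p = 0.00028), -0.57 ± 0.039 for 1w (adjusted p = 7e-19) and -0.40 ± 0.038 for 3w (adjusted p = 9.4e-14). Kcnd2 had 13.9 and 12.7 CPM in 1w KO against 16.9 and 14.5 CPM in 1w controls. At 3w KO had 42.8 and 43.1 CPM against 51.8 and 54.5 CPM in control. Its log2 fold change was -0.27 ± 0.060 over both ages (adjusted p = 0.0089) and -0.30 ± 0.053 at 3w (adjusted p = 1.7e-06), while its call at 1w (-0.22 ± 0.074, adjusted p = 0.012) was lost without control 1w replicate 1 or KO 1w replicate 2. Kcnd3 did not share this direction at 1w, where it had 4.22 and 3.84 CPM in KO against 3.11 and 3.28 CPM in control (0.33 ± 0.13, adjusted p = 0.037, lost in 9 of 14 alternatives). At 3w it was lower in KO, with 14.7 and 15.4 CPM against 18.7 and 17.9 CPM in control (-0.29 ± 0.077, adjusted p = 0.0013), and over both ages it was not called (-0.03 ± 0.12, adjusted p = 0.86). Kcna4, the pore of the slow transient outward current, had 1.77 and 2.01 CPM in 1w KO against 3.44 and 3.50 CPM in 1w controls. In the 3w libraries the values were 1.62 and 1.32 CPM in KO and 1.57 and 1.80 CPM in control. Its fall was called at 1w (-0.88 ± 0.17, adjusted p = 2.4e-05) and over both ages (-0.57 ± 0.17, adjusted p = 0.031, lost in 6 of 13 alternatives), and its 3w groups overlapped.

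These falls stood beside lower cardiomyocyte markers and higher markers of other cells. Over both ages 0 of the 8 tested cardiomyocyte markers were higher and 5 lower in KO (median log2 fold change -0.259), and the marker sum was 35910 to 36260 CPM in 1w KO against 37880 to 38550 CPM in 1w controls. The 3w values were 60590 to 61280 CPM in KO against 74790 to 78930 CPM in control. In these bulk libraries fewer cells of a type and less RNA per cell cannot be told apart, and the part of the cell mix in the channel values was not tested.

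The delayed rectifier pores Kcnh2 and Kcnq1 were among the higher members per kilobase in 3w controls. Kcnh2, the pore of the rapid delayed rectifier, had 108 and 109.8 CPM in 1w KO against 92.2 and 103.5 CPM in 1w controls. At 3w the libraries gave 132 and 128 CPM in KO and 136 and 134 CPM in control. Its log2 fold change was 0.15 ± 0.040 for 1w (adjusted p = 0.0016) and -0.06 ± 0.039 for 3w (adjusted p = 0.22), and the 1w call was lost without control 1w replicate 1. Kcng2, a silent voltage-gated subunit that alters the channels it joins, had 56.9 and 60.5 CPM in 1w KO and 56.7 and 68.1 CPM in 1w controls. For 3w the readings were 97.1 and 86.9 CPM in KO and 83.0 and 77.6 CPM in control, and the gene passed the test at neither age. Kcnq1, the pore that pairs with Kcne1, had 34.9 and 37.9 CPM in 1w KO against 40.5 and 40.4 CPM in 1w controls (-0.15 ± 0.054, adjusted p = 0.019, lost in DESeq2 and without control 1w replicate 1 or 2 or KO 1w replicate 1). At 3w KO had 61.4 and 64.9 CPM against 71.2 and 63.1 CPM in control, where the groups overlapped. Kcna5, the ultrarapid delayed rectifier of mouse ventricle, rose over both ages, by 0.33 ± 0.081 (adjusted p = 0.013). It was called at 3w (0.51 ± 0.081, adjusted p = 3.2e-07) and not at 1w (0.18 ± 0.077, adjusted p = 0.054). It had 15.3 and 14.7 CPM in 1w KO against 13.9 and 12.8 CPM in 1w controls. In the 3w libraries the values were 15.6 and 16.4 CPM in KO and 10.8 and 11.9 CPM in control, so all 4 KO libraries lay above all 4 control libraries.

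Kcne1 and Kcnv2 changed in KO in opposite directions at each age. Kcne1 had 286 and 294 CPM in 1w KO against 322 and 312 CPM in 1w controls (-0.13 ± 0.034, adjusted p = 0.0016). The 3w values were 132 and 125 CPM in KO against 87.5 and 81.1 CPM in control (0.61 ± 0.038, adjusted p = 2e-21). Of the 16 genes averaging at least 10 CPM it was the one furthest above control at 3w, and its 1w call was lost without KO 1w replicate 1. Kcnv2, a silent subunit of the voltage-gated family, had 2.29 and 3.00 CPM in 3w KO against 6.91 and 7.81 CPM in 3w controls, a log2 fold change of -1.46 ± 0.15 (adjusted p = 1.2e-12). At 1w it held 11 counts in KO against 1 in control, a ratio of 8.08 with a 95% counting interval of 1.17 to 348, and this call was lost in DESeq2 and without control 1w replicate 1 or 2 or KO 1w replicate 1.

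Kcnh7 and Kcnq5 also rose in KO over both ages. Kcnh7, a relative of Kcnh2, had 2.04 and 2.14 CPM in 1w KO against 0.63 and 0.547 CPM in 1w controls. Values at 3w were 2.12 and 1.32 CPM for KO and 0.882 and 1.24 CPM for control (1.24 ± 0.27 over both ages, adjusted p = 0.0078). Kcnq5, of the family that carries the M current in neurons, had 2.45 and 2.65 CPM in 1w KO against 1.93 and 1.78 CPM in 1w controls. For 3w the readings were 2.44 and 2.06 CPM in KO and 1.53 and 1.63 CPM in control (0.49 ± 0.12, adjusted p = 0.016, lost without KO 1w replicate 2 or KO 3w replicate 1). For Kcnh7 and Kcnq5 all 4 KO libraries lay above all 4 control libraries. In all, over both ages 4 of the 20 tested voltage-gated genes were higher and 2 lower in KO (30.0%, against 30.7% of all genes), and the other 14 did not pass the test. Kcna1, Kcna2, Kcna7, Kcnc1, Kcnc2, Kcnc4 and Kcnd1, also tested, had means over all libraries between 0.154 CPM for Kcnc1 and 1.5 CPM for Kcna7. Of these 7, Kcna1, Kcna2 and Kcnc2 were called higher in KO at 1w, beside 23.0% of all genes tested. At 3w 0 of these 7 were called, beside 49.2% of all genes. The 1w call of Kcna2 was kept in 10 of 13 alternatives and that of Kcnc2 in 9 of 14. At 1w Kcna1 and Kcna2, singled out after their values were seen, were low in control: Kcna1 held 22 counts in KO and 0 in control, at least 5.38-fold higher when control is set to 3 counts for its libraries together, and Kcna2 held 16 counts against 2.

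Two-pore channels set background potassium leak. Kcnk3, the highest potassium channel gene per kilobase in 3w controls, had 188 and 186 CPM in 1w KO against 151 and 154 CPM in 1w controls. At 3w KO had 328 and 319.7 CPM against 366 and 353 CPM in control. It was higher in 1w KO (0.29 ± 0.033, adjusted p = 4.3e-11) and lower at 3w (-0.15 ± 0.032, adjusted p = 5.5e-05). Kcnk2, a stretch-sensitive leak channel, was higher in KO over both ages by 0.85 ± 0.21 (adjusted p = 0.015). It had 3.82 and 4.31 CPM in 1w KO against 2.39 and 2.27 CPM in 1w controls. In the 3w libraries the values were 1.13 and 0.976 CPM in KO and 0.763 and 0.283 CPM in control. Kcnk13 rose by 1.93 ± 0.32 over both ages (adjusted p = 0.0025), with 0.764 and 0.794 CPM in 1w KO against 0.21 and 0.109 CPM in 1w controls. The 3w values were 0.318 and 0.349 CPM in KO against 0.143 and 0.106 CPM in control, and the call at 3w was kept in only 1 of 13 alternatives. Kcnk6 had 3.46 and 3.36 CPM in 1w KO and 3.69 and 3.74 CPM in 1w controls, which did not pass the test, and 2.82 and 2.16 CPM in 3w KO against 1.17 and 1.52 CPM in 3w controls (0.92 ± 0.20, adjusted p = 0.00012). Of the 6 tested genes of this class 2 were higher and 0 lower over both ages (33.3%, against 30.7% of all genes), and Kcnk3, Kcnk4, Kcnk5 and Kcnk6 did not pass.

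Calcium-activated potassium channels link calcium release to repolarisation. Kcnn2, which leads this class per kilobase at 1w, had 7.28 and 7.81 CPM in 1w KO and 8.90 and 8.69 CPM in 1w controls. At 3w the libraries gave 11.8 and 10.4 CPM in KO and 10.3 and 9.40 CPM in control. It passed the test at neither age (adjusted p = 0.058 at 1w and 0.12 at 3w). Kcnn1 had 2.94 and 2.70 CPM in 1w KO and 2.64 and 2.57 CPM in 1w controls, and was lower at 3w with 8.72 and 8.65 CPM in KO against 12.1 and 11.3 CPM in control (-0.44 ± 0.094, adjusted p = 6.4e-05). Kcnn3, from the same small-conductance family, was higher in KO over both ages by 0.92 ± 0.21 (adjusted p = 0.0095). It had 4.34 and 4.16 CPM in 1w KO against 3.40 and 2.46 CPM in 1w controls. Values at 3w were 1.98 and 1.81 CPM for KO and 0.644 and 0.671 CPM for control. Kcnn4, the intermediate-conductance channel of blood and immune cells, had 0.899 and 0.768 CPM in 1w KO against 0.336 and 0.273 CPM in 1w controls (1.48 ± 0.40, adjusted p = 0.0017, lost in DESeq2 and without control 1w replicate 2). At 3w it held 16 counts in KO against 1 in control, a ratio of 19.7 with a 95% counting interval of 3.06 to 827. The sodium-activated gene Kcnt2 had 0.764 and 0.926 CPM in 1w KO and 0.672 and 0.355 CPM in 1w controls. For 3w the readings were 0.777 and 0.872 CPM in KO and 0.286 and 0.530 CPM in control (0.91 ± 0.27 over both ages, adjusted p = 0.032, lost in 6 of 13 alternatives). In this class 3 of 6 tested genes were higher and 0 lower over both ages, beside 30.7% of all genes called, and Kcnn1, Kcnn2 and Kcnt1 did not pass.

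Among accessory subunits, Kcnip2 fell and Kcnab2 rose over both ages, and the other 6 tested did not pass, beside 30.7% of all genes called. Kcnab2, a cytoplasmic beta subunit of the Kcna channels, had 2.49 and 2.20 CPM in 1w KO against 0.713 and 0.656 CPM in 1w controls. At 3w KO had 0.847 and 0.872 CPM against 0.548 and 0.495 CPM in control. Its log2 fold change was 1.32 ± 0.23 over both ages (adjusted p = 0.003) and 1.79 ± 0.24 at 1w (adjusted p = 8.2e-09), and all 4 KO libraries lay above all 4 control libraries. Kcnab1, a related subunit, had 1.28 and 1.48 CPM in 1w KO and 1.13 and 0.875 CPM in 1w controls. In the 3w libraries the values were 0.918 and 0.662 CPM in KO and 0.0715 and 0.0353 CPM in control (3.71 ± 0.55, adjusted p = 6.3e-08). These 3w control values rest on 3 and 1 counts. Kcnab3, Kcne1l, Kcnip3 and Kcnmb4 were called at neither age, and the exons of Kcnmb4 overlap antisense genes over 31.5% of their length.

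Of the 11 genes that rose over both ages 10 averaged under 5 CPM, the exception being Kcna5, and markers of non-muscle cells rose with them. Among all 49 tested channel genes 19 averaged at least 5 CPM. Of all genes tested 16.3% were higher and 14.5% lower in the same fit. Macrophage markers were higher in KO for 10 of 10 over both ages, with sums of 150.6 to 157.8 CPM in 1w KO against 47.4 to 48.7 CPM in 1w controls. The 3w values were 130.2 to 134.1 CPM in KO against 84.9 to 86.2 CPM in control. Fibroblast markers were higher for 9 of 9 tested, with Tcf21 listed at 0, and sums of 2370 to 2395 CPM in 1w KO against 1305 to 1310 CPM in 1w controls. At 3w the libraries gave 819 to 828.3 CPM in KO and 388 to 392.5 CPM in control. Higher and lower numbered 6 and 0 of 10 for endothelial, 6 and 0 of 10 for smooth muscle and pericyte, 2 and 0 of 5 tested for Schwann cell and neuron, 0 and 0 of 3 tested for erythroid, 0 and 0 of 8 for epicardial and 3 and 0 of 8 for atrial markers. The part of these cells in the rises of Kcnn4, Kcnk13, Kcnab2, Kcnk2, Kcnn3 and the other low members was not tested.

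Most channel genes were called with age, a share near that of all genes within each genotype. From the additive fit, 21 channel genes were higher and 16 lower at 3w than at 1w over KO and control, 75.5% of the 49, against 66.6% of all genes tested (32.3% higher and 34.3% lower). Within KO 22 were higher and 12 lower (69.4%, against 67.9% of all genes, 33.2% higher and 34.6% lower), and within control 22 were higher and 14 lower (73.5%, against 70.8%, 34.9% higher and 36.0% lower). In both genotypes 19 genes were higher at 3w and 9 lower, and 0 were called in opposite directions. How many of all genes share these patterns was not counted. The 9 that were lower in both were Kcnab1, Kcne1, Kcnj6, Kcnj8, Kcnk2, Kcnk6, Kcnmb4, Kcnn3 and Kcnn4. By class, over both genotypes 11 of 20 voltage-gated genes were higher and 4 lower, 6 of 9 inward rectifiers higher and 2 lower, and 1 of 8 accessory subunits higher and 5 lower.

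Kcnd2, Kcnd3, Kcnj2, Kcnj12 and Kcnip2 rose with age in both genotypes. Kcnd2 was higher at 3w by 1.69 ± 0.062 on the log2 scale in KO (adjusted p = 1.7e-33) and 1.77 ± 0.062 in control (adjusted p = 4.8e-35), and Kcnd3 by 1.89 ± 0.097 in KO and 2.52 ± 0.10 in control. Kcna4 was lower at 3w in control (-1.06 ± 0.18, adjusted p = 7.2e-07) and not called in KO (-0.36 ± 0.21, adjusted p = 0.13). Kcnj12 was higher at 3w by 1.52 ± 0.065 in KO and 1.66 ± 0.065 in control. Kcnj4 was higher at 3w in KO (1.41 ± 0.38, adjusted p = 0.00097) and not called in control (-0.20 ± 0.52, adjusted p = 0.75). Kcnj2 was higher by 0.34 ± 0.060 in KO (adjusted p = 1.7e-06) and 0.60 ± 0.049 in control (adjusted p = 3e-17), so its level in 3w KO, 24.4 and 24.8 CPM, lay below that of control at 1w, 41.7 and 40.1 CPM. The rise of Kcnip2 was 0.66 ± 0.039 in KO and 0.49 ± 0.038 in control, which left KO at 3w (134 and 128 CPM) just above control at 1w (122 and 124 CPM). Kcnj14 rose by 2.66 ± 0.091 in KO and 6.01 ± 0.17 in control, and Kcnv2 held 511 counts in 3w controls against 1 in 1w controls, a ratio of 439 with a 95% counting interval of 78.5 to 17400.

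Kcnk3 rose by 0.79 ± 0.033 in KO and 1.24 ± 0.033 in control, and Kcnn1 by 1.62 ± 0.12 in KO and 2.18 ± 0.12 in control. Of the delayed rectifier pores, Kcnq1 rose by 0.80 ± 0.052 in KO and 0.74 ± 0.052 in control, and Kcnh2 by 0.25 ± 0.039 in KO and 0.46 ± 0.040 in control. Kcne1 fell with age, with a log2 fold change of -1.17 ± 0.036 in KO (adjusted p = 1.7e-37) and -1.91 ± 0.037 in control (adjusted p = 3.2e-48), while its pore partner Kcnq1 rose. Kcnj8 also fell (-0.59 ± 0.098 in KO and -1.60 ± 0.11 in control), as did Kcnk2 (-1.94 ± 0.21 in KO and -2.03 ± 0.26 in control) and Kcnn3 (-1.16 ± 0.17 in KO and -2.12 ± 0.23 in control). All 8 tested cardiomyocyte markers were higher and 8 of 9 fibroblast, 9 of 10 endothelial and 8 of 10 smooth muscle and pericyte markers lower at 3w over both genotypes, and their part in these age changes was not tested. Injection days differed between the ages as well.

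**Figure D4:**
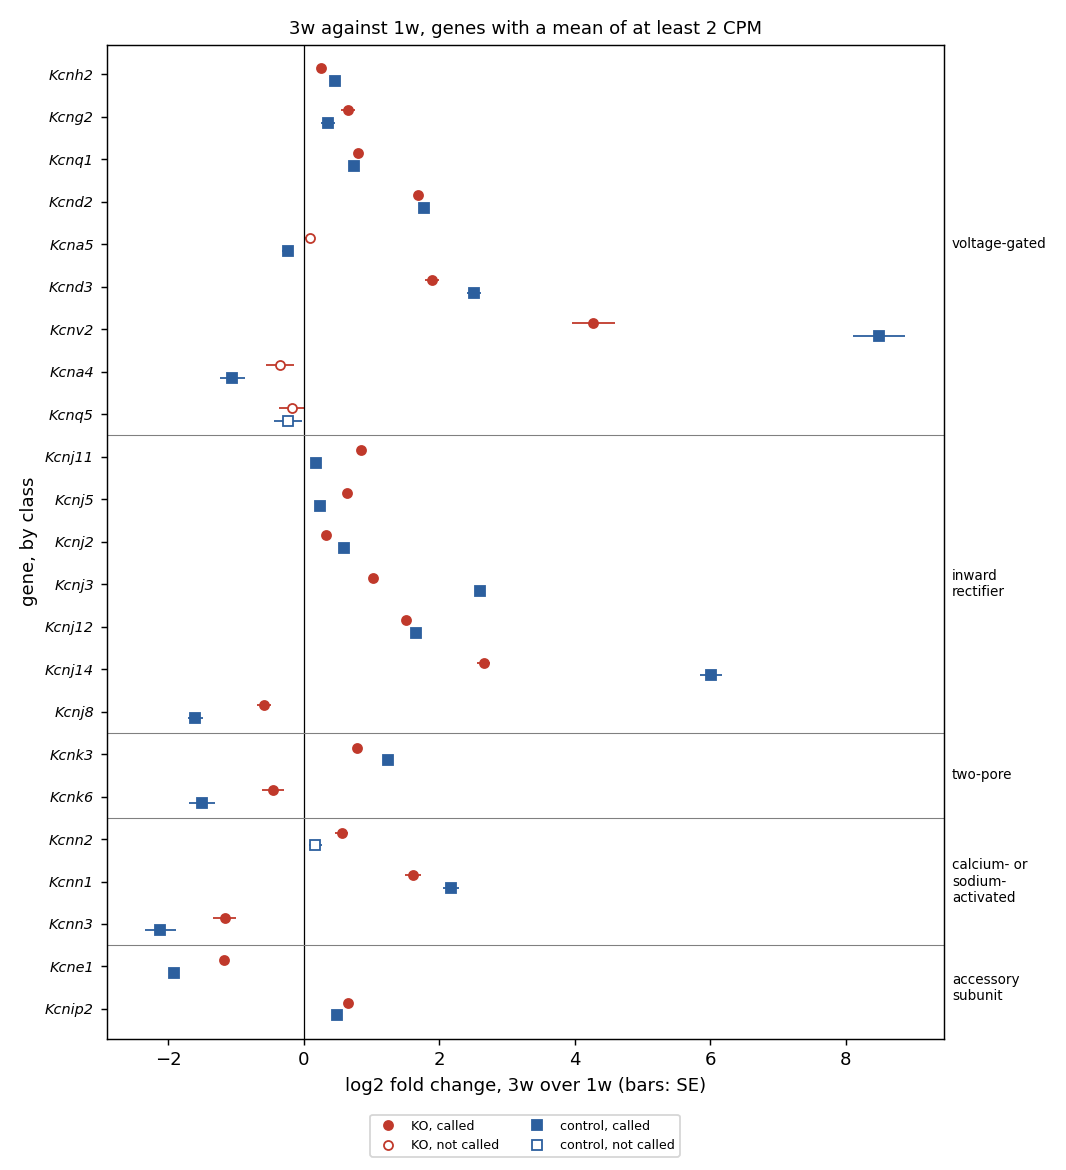
Log2 fold change of 3w over 1w (horizontal axis) within KO (circles) and control (squares) for 23 potassium channel genes with a mean of at least 2 CPM, by class, with bars of 1 SE and filled symbols for genes called at an adjusted p under 0.05. Most symbols lie right of 0, Kcne1, Kcnj8, Kcnk6 and Kcnn3 lie left of 0 in both genotypes, and Kcnv2 and Kcnj14 lie furthest right in control.

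The KO effect differed between the ages for 25 of the 49 genes (13 higher and 12 lower at 3w), which is 51.0% against 35.6% of all genes tested, 17.6% higher and 17.9% lower. DESeq2 called 12. Because this contrast is the same split as the Y-linked transcripts, an effect of age on the response to KO cannot be told apart from it. The 4 genes higher in 1w KO and lower at 3w were Kcnd3, Kcnj3, Kcnk3 and Kcnv2, and the 4 with the reverse order were Kcne1, Kcnj5, Kcnj8 and Kcnj11.

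Genes outside the family that bind, anchor or regulate these channels were read from lists, beside 16.3% higher and 14.5% lower of all genes tested. Of 8 tested pore-associated partners 2 were higher and 1 lower in KO over both ages: Amigo1, a membrane partner of delayed rectifier pores (0.24 ± 0.062 on the log2 scale), Lrrc55, a calcium-activated channel subunit (1.49 ± 0.43), and Lrrc52, from the same family (-0.73 ± 0.098). Of 12 genes that anchor channels or set their surface number, 2 were higher and 6 lower. The largest changes were those of the scaffold Dlg4 (0.93 ± 0.18), the kinase Sgk1 (0.55 ± 0.091), the ubiquitin ligase Nedd4l (-0.34 ± 0.079) and Cttn (-0.25 ± 0.081), an actin-binding protein. Of 7 tested regulators of channel genes 0 were higher and 3 lower, namely Irx5 (-0.52 ± 0.16), which patterns Kcnd2 across the ventricular wall, Klf15 (-0.31 ± 0.072), a regulator of Kcnip2, and Rest (-0.17 ± 0.053), a repressor of neuronal and fetal genes. Some of these changes were called at a single age. Irx5 (-0.13 at 1w and -0.90 at 3w) and Klf15 (-0.14 and -0.45) were called at 3w and not at 1w. Cttn (-0.46 at 1w and -0.03 at 3w) and Lrrc55 were called at 1w and not at 3w, and group means of Lrrc55 were only 0.0296 to 0.481 CPM.

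The 45 genes outside the filter were 20 voltage-gated, 6 inward rectifier, 8 two-pore, 2 calcium- or sodium-activated and 9 accessory subunit genes. Of these, 31 held at least 1 count, and the highest total over the 8 libraries was 54 counts, for Kcnh6. The 14 listed at 0 in every library were Kcna3, Kcns2, Kcnv1, Kcnj9, Kcnj13, Kcnj15, Kcnk9, Kcnk15, Kcnk16, Kcnk18, Kcne3, Kcne4, Kcnmb1 and Kcnrg.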

How the data were processed

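Per the submitters' processing notes the authors aligned the reads to mm10 with HISAT2, counted them with featureCounts, checked them with FastQC and MultiQC and used DESeq2. The authors deposited whole-number counts per gene. Tool versions, gene annotation and strand setting: not given in the sources used here. Libraries were made with SMART and Nextera XT kits, per the labels' protocols. Names came from GENCODE M21 (54723 of 54752 IDs named), promoters from RefSeq (GRCm38.p6).

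From these counts, genes were kept with edgeR's filterByExpr (minimum count 10, minimum total 15), leaving 14665. CPM use TMM factors of 0.759 to 1.23. The test was edgeR's quasi-likelihood F-test with robust fitting, on 4 group means or on age plus KO for comparisons over both ages or genotypes, with Benjamini-Hochberg adjustment over all genes tested and a gene called below 0.05. The SE comes from the F statistic. The common coefficient of variation was 3.03%. Counting intervals cover counting error only.

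The members and gene lists were chosen with earlier results of these data known. Single values were given for tested members on a list of textbook cardiac channels, called over both ages, or among the 3 highest of a class. Single values of some members are not reported here, though every count covers them. Alternatives were another scaling, filter, tool, library size, a replicate block and leaving out each library. The procedure was tested on simulated data. Software was R 4.3.3, edgeR 4.0.16, limma 3.58.1 and DESeq2 1.42.0.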

Additional observations from a re-analysis of the deposited data

Results flagged for a closer look

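The KO effect at 3w less the KO effect at 1w passed edgeR's test of that difference for 25 channel genes, and those reported here are given as log2 values. This contrast separates KO at 1w and control at 3w from the other 2 groups, as the Y-linked transcripts do, so the 2 cannot be told apart. Among the 4 genes called higher in KO at 3w and lower at 1w the differences were Kcnj8 1.01, Kcne1 0.73, Kcnj11 0.66 and Kcnj5 0.40. Among the 4 called higher in KO at 1w and lower at 3w they were Kcnv2 -4.23, Kcnj3 -1.59, Kcnd3 -0.62 and Kcnk3 -0.45, with the fitted value of Kcnv2 resting on 1 count in control at 1w. Other genes with a positive difference were Kcnab1 3.23, Kcnj4 1.61, Kcnk6 1.05, Kcnn3 0.95, Kcna4 0.70, Kcnn2 0.39, Kcna5 0.33 and Kcnip2 0.17. The fitted value of Kcnab1 rests on 3 and 1 counts in the control libraries at 3w. Other genes with a negative difference were Kcna1 -5.44, Kcnj14 -3.36, Kcnk5 -2.33, Kcnh7 -1.11, Kcnab2 -1.08, Kcnn1 -0.56, Kcnj2 -0.26 and Kcnh2 -0.21, with that of Kcna1 fitted against 0 counts in control at 1w. No group held enough libraries to look for single libraries far from the rest.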

How the results depend on the processing

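With DESeq2, 18 channel genes were called at 1w in place of 29 and 12 for the difference between the KO effects in place of 25, and the cause was not tested. For this and the other runs below, shares of all genes called are not given, so the counts say nothing particular to channel genes. The mean of the 2 KO effects from the fit of 4 groups, chosen after seeing the data, called 29 genes over both ages in place of 16, where the additive fit counts disagreement between the ages as spread. Leaving out each library in turn gave 19 to 30 calls at 1w, 20 to 28 at 3w, 13 to 16 over both ages, 33 to 35 for age in control, 31 to 35 in KO, 34 to 37 over both genotypes and 19 to 21 for the difference. Another scaling, no filter, library sizes without mitochondrial genes and fits of the 2 compared groups kept each count within 1.5 times its main value. No gene called in the main run or in the alternative reversed its direction in any KO comparison. Changes of direction among uncalled genes were not counted. No pairing of libraries by replicate number was seen: deviations of same-numbered libraries correlated between -0.0222 and 0.00825. Counting noise enters these deviations, so the check could miss a weak shared effect. With the replicate number as a block, 29 genes were called at 1w, 26 at 3w, 14 over both ages, 34 for age in control, 34 in KO, 35 over both genotypes and 24 for the difference. With 2 libraries a group, changes of the 19 tested genes under 1 CPM can easily go uncalled. Some modest ones were called, such as that of Kcnj6 over both ages (log2 fold change 0.68).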
